A study of Homo sapiens with 8 samples.

Results

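The interferon-stimulated genes and the gene of the kinase PKR, EIF2AK2, were followed as a set of 39 genes in RNA-seq data from HCT-8 colon cancer cells. The members were chosen by name, with earlier results of these data known. They were matched to Ensembl gene identifiers, and all 39 were found among the 64253 genes of the count tables. The 4 groups were the 5-FU-sensitive human line HCT-8, its resistant counterpart HCT-8/FU, and 2 groups of HCT-8 given conditioned medium (CM), which is medium taken from the named cells after 48 h of culture. One of these received CM of HCT-8 and the other received CM of HCT-8/FU, whereas HCT-8 and HCT-8/FU themselves were grown in unconditioned medium. Each group had 2 replicates, no group is described as treated with 5-FU when RNA was taken, and HCT-8/FU is 1 resistant line, so that resistance and any other difference between the lines cannot be told apart. How long HCT-8 cells stayed in CM is not stated in the sources read, and the sample labels name Ham's F12 medium where the study's methods name an RPMI medium.

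Interferons bind receptors at the cell surface, and the receptors' kinases activate the factor ISGF3, of which STAT2 and IRF9 are parts. ISGF3 binds a short DNA element, the interferon-stimulated response element (ISRE), and raises transcription of genes that restrict viruses. PKR is one of their products. It binds double-stranded RNA and then phosphorylates the translation factor eIF2alpha, which slows protein synthesis. EIF2AK2 also stands on the study's own list of candidate kinases, which was chosen on these samples, so its change is not independent evidence here.

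The core of the ISRE can be read in the members' promoters, which are shown because most of the members found hold this element. Promoters came from RefSeq (GRCh38.p14), from 250 bases before to 50 bases after each transcription start. Of the 39 members, 32 had an entry. The core searched was GAAA, any 2 bases and GAAA again, also as its reverse complement TTTC, any 2 bases and TTTC, with overlapping matches kept. This word was in at least 1 promoter of 23 of these 32 members (71.9%). It was in 1255 of all 35116 promoters (3.57%) and in at least 1 promoter of 4.38% of the 27305 gene symbols. The sequences below run from 170 bases before the start to the 5 first transcribed bases, 5′ to 3′ on the gene's strand, for 7 members whose levels are described later, and capitals mark the word.
EIF2AK2 (chr2:37156976-37157150, minus strand): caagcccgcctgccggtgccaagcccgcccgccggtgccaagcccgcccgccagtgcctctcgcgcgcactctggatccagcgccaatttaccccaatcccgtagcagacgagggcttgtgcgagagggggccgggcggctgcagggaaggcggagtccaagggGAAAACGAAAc
IFIH1 (chr2:162318680-162318854, minus strand): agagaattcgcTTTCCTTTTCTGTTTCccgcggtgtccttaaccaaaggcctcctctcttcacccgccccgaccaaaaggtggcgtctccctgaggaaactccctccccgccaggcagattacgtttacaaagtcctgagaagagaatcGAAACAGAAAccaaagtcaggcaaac
OAS3 (chr12:112938304-112938478, plus strand): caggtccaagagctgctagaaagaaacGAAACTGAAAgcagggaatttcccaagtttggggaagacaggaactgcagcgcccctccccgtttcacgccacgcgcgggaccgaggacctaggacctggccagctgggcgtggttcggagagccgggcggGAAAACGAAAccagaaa
IFIT1 (chr10:89392453-89392627, plus strand): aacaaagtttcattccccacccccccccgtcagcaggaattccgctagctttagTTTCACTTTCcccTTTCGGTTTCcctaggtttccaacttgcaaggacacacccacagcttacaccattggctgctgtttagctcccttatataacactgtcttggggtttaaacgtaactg
DTX3L (chr3:122564168-122564342, plus strand): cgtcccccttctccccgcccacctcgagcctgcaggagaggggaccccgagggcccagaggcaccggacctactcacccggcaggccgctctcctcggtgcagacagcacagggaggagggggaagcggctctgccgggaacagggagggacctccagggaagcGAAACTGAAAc
PARP14 (chr3:122680669-122680843, plus strand): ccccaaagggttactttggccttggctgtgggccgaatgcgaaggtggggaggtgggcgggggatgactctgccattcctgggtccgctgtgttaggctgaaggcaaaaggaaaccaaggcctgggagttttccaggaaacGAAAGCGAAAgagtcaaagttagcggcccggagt
IFI27 (chr14:94110566-94110740, plus strand): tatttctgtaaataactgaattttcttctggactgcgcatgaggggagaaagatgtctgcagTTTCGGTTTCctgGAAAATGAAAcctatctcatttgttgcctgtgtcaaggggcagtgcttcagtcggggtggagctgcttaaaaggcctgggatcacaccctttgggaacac
The word began 6 bases before the start in EIF2AK2 and in DTX3L. In IFIH1 it occurred 3 times, of which the first and the second overlap, and in OAS3, IFIT1 and IFI27 it occurred 2 times. The 10 bases in the promoter of DTX3L, chr3:122564332-122564341, are also the word in 1 of the 2 promoters of PARP9, which lies head to head with DTX3L. The promoters of OAS1, CMPK2, HERC6 and IFI35 held no match, which says only that these letters are not in those windows. In HCT-8/FU against HCT-8, 8 of the 11 members in the table that were DE and higher held the word, as did 12 of the 16 that were not DE.

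Counts per library ran from 5804124 in HCT-8/FU replicate 2 to 34881349 in HCT-8 replicate 2. HCT-8 replicate 1, HCT-8/FU replicate 2 and CM of HCT-8 replicate 1 were the shallow libraries, with 20% to 29.6% of their records not aligned against 3.58% to 4.43% in the other 5. Levels are given as CPM, the count scaled to a common library size, after TMM normalization, and values listed for a group are those of replicate 1 and replicate 2. Markers of colon epithelium summed to between 8700 and 10700 CPM in every library. The 8 markers of leukocytes summed to 3.78 to 6.67 CPM. Of these, 4 were at 0 in all 8 libraries, among them the defining genes PTPRC, CD3E and MS4A1. The 4 others were tested, and none was DE in any comparison. Their median log2 fold change against HCT-8 was 0.59 for HCT-8/FU, 1.07 for CM of HCT-8, and 0.82 for CM of HCT-8/FU. Between the CM groups it was -0.19, with CM of HCT-8/FU the lower. Of 7 markers of fibroblasts and endothelium, which summed to 14.5 to 24.6 CPM, COL1A2 was at 0 in all libraries and PDGFRB was DE and higher in CM of HCT-8 than in HCT-8 (log2 fold change 0.82). KRT20 and VIL1, markers of intestinal epithelium, were DE and higher in all 3 other groups than in HCT-8, by 0.68 to 1.45, and the part of this in the results below was not tested. After the correction for GC content and length described below, 3 of the 10 epithelial markers were DE and higher in HCT-8/FU than in HCT-8. In each CM group only 1 was, so that KRT20 and VIL1 did not both keep their calls there. Genes were called DE at an FDR of 0.05 or less with a change of 1.5-fold or more (0.58 or more on the log2 scale in either direction). Adjusted p-values come from the quasi-likelihood test of edgeR, adjusted by Benjamini-Hochberg over the 20305 genes tested, and fold changes are followed by their SE.

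Of the 39 members, 34 were expressed enough to be tested. The 5 others were RSAD2, SAMD9L, IFI44, IFI44L and XAF1, with 30, 9, 17, 5 and 7 counts summed over all 8 libraries. HERC5, OAS2, SAMD9, EPSTI1, TRIM22 and BST2 passed the filter but stayed below 2.2 CPM in every library, so that a change could hardly be seen at this depth. Set per kilobase of exon, the highest mean level in unconditioned HCT-8 was that of LGALS3BP, which encodes a secreted glycoprotein, at 114 CPM per kilobase. It was followed by ISG15, a ubiquitin-like protein that is joined to other proteins, at 64.2 CPM per kilobase, IFI6 at 42.6 and IFITM3 at 26.3. EIF2AK2 stood at 6.31 CPM per kilobase there and MX1, a GTPase that restricts viruses, at 0.261. Length here is that of all annotated exons of a gene together, 17984 bases for MX1, 11036 for EIF2AK2 and 867 for ISG15. It can exceed the length of the transcript expressed, which lowers the value per kilobase. No interferon gene was expressed enough for a test. Of 21 interferon genes, 14 had no count in any library, and all 21 summed to at most 15 counts in 1 library, of which 12 were of IFNE in HCT-8/FU replicate 1.

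Unconditioned HCT-8 was the group with the lowest mean level for 22 of the 34 tested members (64.7%), against 26.6% of all tested genes. HCT-8/FU held the highest mean for 14 members and CM of HCT-8 for another 14, which is 41.2% each, against 31.8% and 30.8% of all genes. As RNA was taken from whole cultures, more cells expressing a gene and more RNA per cell cannot be told apart. The 5 members OAS1, OAS3, IFIT1, CMPK2 and PARP9 were DE and higher than HCT-8 in all 3 other groups. That is 14.7% of the 34, and 278 of all 20305 tested genes (1.37%) met the same rule. These 3 comparisons share the HCT-8 libraries. After the correction for GC content and length described below, OAS3, IFIT1 and CMPK2 kept their calls in all 3. OAS1 (0.46) and PARP9 (0.48) were then no longer DE in HCT-8/FU against HCT-8. PARP9 (0.50) was also no longer DE in CM of HCT-8/FU against HCT-8.

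**Figure D1:**
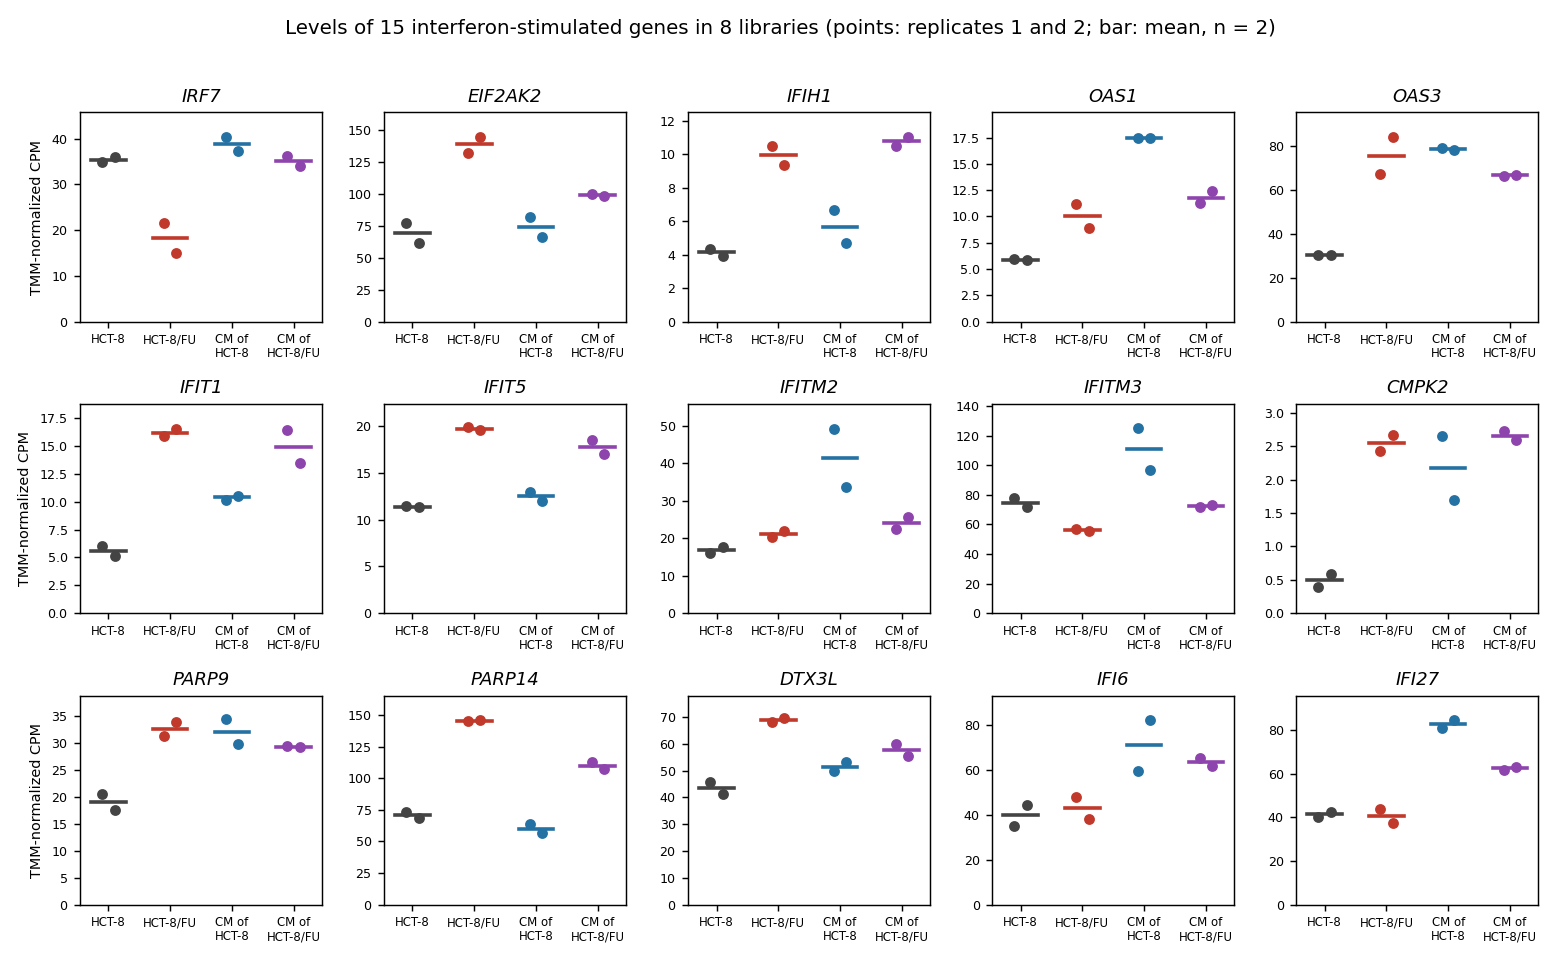
TMM-normalized CPM (vertical axis, from 0) of 15 members in the 4 groups (horizontal axis), with 1 point per library and a bar at the mean of the 2 replicates. OAS3 lies near 30.4 CPM in both HCT-8 libraries and at 66.3 CPM or more in the 6 others, whereas IRF7 is lowest in HCT-8/FU and IFI27 is highest in CM of HCT-8.

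HCT-8/FU was compared with HCT-8 to see how resistant cells differ from sensitive ones. Of the 34 tested members 13 were DE, where 21.3% of all tested genes were. The 12 that rose (background 13.2%) were PARP14, OAS3, IFIT1, EIF2AK2, DTX3L, PARP9, IFIH1, IFIT5, CMPK2, OAS1, HERC6 and IFIT2, and IRF7 alone fell (background 8.12%). The median log2 fold change of the 34 was 0.34, against 0.01 over all genes. ISG15, MX1, OASL, USP18, LGALS3BP and 16 other tested members were not DE.

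EIF2AK2 (chr2:37099210-37157522 on the minus strand of GRCh38) was at 77.4 and 62 CPM in HCT-8 and at 132 and 145 CPM in HCT-8/FU. Under CM of HCT-8 it was at 82.4 and 66.2 CPM, and in CM of HCT-8/FU at 100 and 98.5 CPM. Both HCT-8/FU libraries lay above every other library, and HCT-8 libraries overlapped those given CM of HCT-8. The log2 fold change of HCT-8/FU against HCT-8 was 1.01 ± 0.115 (adjusted p = 6.5e-06). After correcting for GC content and length, as described below, it was 0.45 ± 0.119 (adjusted p = 0.012), short of the fold threshold.

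IFIH1 encodes MDA5, which senses long double-stranded RNA in the cytoplasm. Its levels were 4.34 and 3.93 CPM in HCT-8, 10.5 and 9.36 CPM in HCT-8/FU, 6.68 and 4.67 CPM in CM of HCT-8, and 10.5 and 11 CPM in CM of HCT-8/FU. Every library of HCT-8/FU and of CM of HCT-8/FU lay above the other 4. The log2 fold change was 1.31 ± 0.217 in HCT-8/FU against HCT-8 (adjusted p = 0.00021). PKR and MDA5 bind the same kind of RNA as the OAS enzymes, which make 2-5A, the activator of RNase L.

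OAS3 was at 30.4 CPM in both HCT-8 libraries, 67.5 and 84.1 CPM in HCT-8/FU, 79.3 and 78.4 CPM in CM of HCT-8, and 66.3 and 67 CPM in CM of HCT-8/FU. OAS1 was at 5.92 and 5.88 CPM in HCT-8, 11.2 and 8.86 CPM in HCT-8/FU, 17.5 CPM in both libraries of CM of HCT-8, and 11.3 and 12.4 CPM in CM of HCT-8/FU. For both genes HCT-8 stood below every library of the other groups, and for OAS1 CM of HCT-8 stood above all of them. In HCT-8/FU against HCT-8 the log2 fold change of OAS3 was 1.29 ± 0.106 (adjusted p = 2.9e-07) and that of OAS1 was 0.82 ± 0.179 (adjusted p = 0.002). OAS1 lost its call without HCT-8/FU replicate 1 (log2 fold change 0.58, adjusted p = 0.092). OAS2 was between 0.0962 and 2.17 CPM and OASL between 2.67 and 5.32 CPM, and neither was DE in any comparison.

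The IFIT proteins bind foreign RNA ends and hinder its translation. IFIT1 was at 6.06 and 5.14 CPM in HCT-8, 15.9 and 16.5 CPM in HCT-8/FU, 10.2 and 10.5 CPM in CM of HCT-8, and 16.4 and 13.5 CPM in CM of HCT-8/FU. IFIT5 was at 11.5 and 11.3 CPM in HCT-8, 19.9 and 19.6 CPM in HCT-8/FU, 13 and 12 CPM in CM of HCT-8, and 18.5 and 17 CPM in CM of HCT-8/FU. For IFIT5 both groups that involve HCT-8/FU lay above both that do not, whereas for IFIT1 CM of HCT-8 lay between HCT-8 and the rest. In HCT-8/FU against HCT-8 the log2 fold change of IFIT1 was 1.57 ± 0.178 (adjusted p = 6e-06) and that of IFIT5 was 0.80 ± 0.14 (adjusted p = 0.00035). IFIT2, at 1.63 to 5.68 CPM, was DE at 1.06 ± 0.387 (adjusted p = 0.044), a call that was lost in 5 of 8 fits that left out 1 library and in DESeq2. IFIT3, at 2.13 to 5.52 CPM, was not DE in any comparison.

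PARP9 and PARP14 belong to the ADP-ribosyltransferases, and DTX3L is the ubiquitin ligase that works with PARP9. PARP14 was at 73.1 and 68.4 CPM in HCT-8, 145 and 146 CPM in HCT-8/FU, 63.5 and 56.8 CPM in CM of HCT-8, and 113 and 107 CPM in CM of HCT-8/FU. DTX3L was at 45.7 and 41.3 CPM in HCT-8, 68.3 and 69.5 CPM in HCT-8/FU, 49.8 and 53.1 CPM in CM of HCT-8, and 59.8 and 55.5 CPM in CM of HCT-8/FU. PARP9 was at 20.5 and 17.6 CPM in HCT-8, 31.2 and 33.9 CPM in HCT-8/FU, 34.4 and 29.8 CPM in CM of HCT-8, and 29.5 and 29.2 CPM in CM of HCT-8/FU. HCT-8/FU was above every other library for PARP14 and DTX3L, whereas for PARP9 it overlapped CM of HCT-8. In HCT-8/FU against HCT-8 the log2 fold changes were 1.04 ± 0.084 for PARP14 (adjusted p = 2.4e-07), 0.67 ± 0.0943 for DTX3L (adjusted p = 4.3e-05) and 0.79 ± 0.122 for PARP9 (adjusted p = 0.00012). PARP9 and DTX3L overlap on opposite strands over 1.6% and 2.4% of their exons, so few of their counts could be mixed. DTX3L lost its call without HCT-8 replicate 2 (log2 fold change 0.56).

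CMPK2, a mitochondrial nucleotide kinase, was at 0.395 and 0.591 CPM in HCT-8, 2.43 and 2.67 CPM in HCT-8/FU, 2.65 and 1.7 CPM in CM of HCT-8, and 2.73 and 2.59 CPM in CM of HCT-8/FU. HCT-8 was below all 6 other libraries, on 3 and 20 counts in its replicates. The log2 fold change in HCT-8/FU against HCT-8 was 2.20 ± 0.425 (adjusted p = 0.00075). CMPK2 overlaps RSAD2 on the opposite strand over 8% of its exons, and RSAD2 held 30 counts in all. HERC6, related to the ligase HERC5 that attaches ISG15, was at 6.3 to 11.9 CPM and DE at 0.61 ± 0.225 (adjusted p = 0.045). That call was lost in DESeq2 and in 4 of 8 fits without 1 library.

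IRF7, a transcription factor of the interferon response, moved the other way. It was at 34.8 and 36 CPM in HCT-8, 21.6 and 14.9 CPM in HCT-8/FU, 40.3 and 37.4 CPM in CM of HCT-8, and 36.3 and 34 CPM in CM of HCT-8/FU. HCT-8/FU lay below all 6 other libraries, with its replicates apart by more than those of any other group. The log2 fold change of HCT-8/FU against HCT-8 was -0.88 ± 0.136 (adjusted p = 0.00011). The other factors of this role, STAT2, IRF1 and IRF9, were not DE in any comparison. IRF1 passed the FDR in HCT-8/FU at -0.44 ± 0.13 (adjusted p = 0.014) without reaching the fold threshold.

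**Figure D2:**
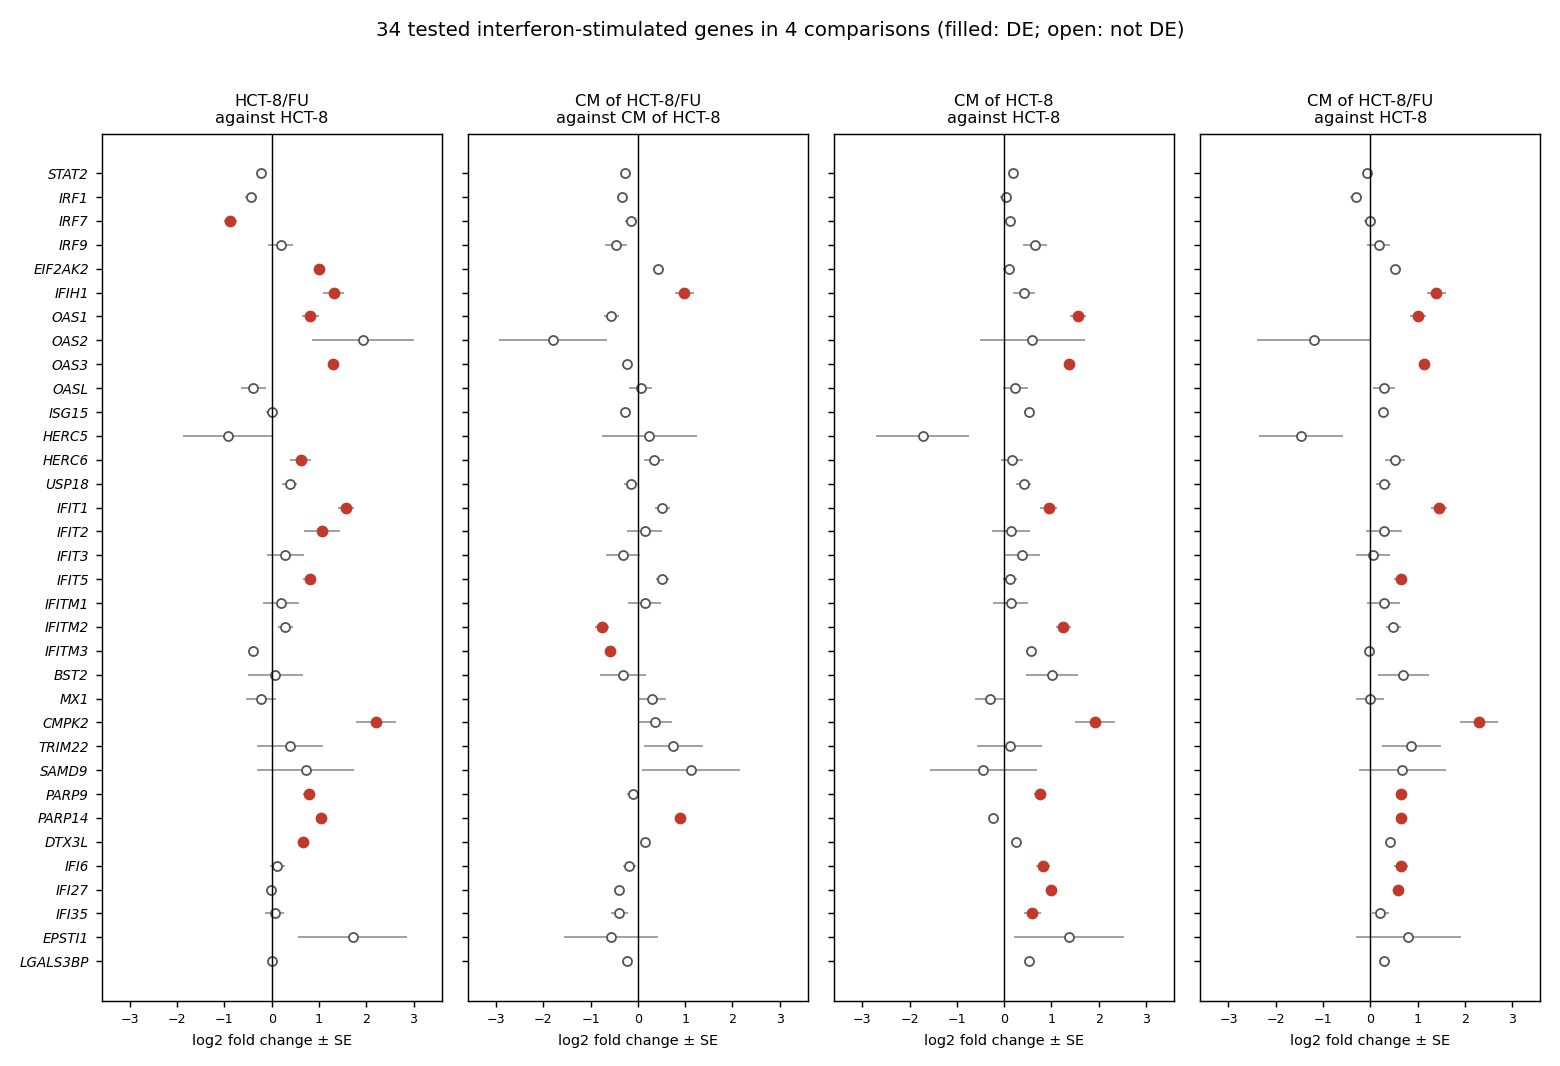
Log2 fold change with its SE (horizontal axes) of the 34 tested members (rows, ordered by role) in 4 comparisons (panels), filled where DE. Of the 34 members 13, 4, 9 and 10 are DE from left to right, and the widest error bars belong to OAS2, HERC5, SAMD9 and EPSTI1, which held 48 to 61 counts over all libraries.

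The group that received CM of HCT-8/FU was compared with the one given CM of HCT-8 to see what medium of resistant cells does beyond conditioning as such. Of the 34 members 4 were DE (11.8%), where 9.25% of all tested genes were. PARP14 (log2 fold change 0.88 ± 0.083, adjusted p = 3.4e-06) and IFIH1 (0.98 ± 0.202, adjusted p = 0.0028) rose, where 7.97% of all genes did. IFITM2 and IFITM3 fell, where 1.28% of all genes did. The median log2 fold change of the members was -0.14, against -0.06 over all genes. EIF2AK2 passed the FDR, as 11 of the 34 members and 19.7% of all genes did, at 0.43 ± 0.112 (adjusted p = 0.013) but not the fold threshold, which it crossed without CM of HCT-8 replicate 1 (0.59, adjusted p = 7.2e-05). IFIT1 and IFIT5 also passed the FDR alone, both at 0.52 (adjusted p = 0.032 and 0.013). Without CM of HCT-8 replicate 2 IFIH1 was no longer DE (0.69, adjusted p = 0.053).

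The IFITM proteins sit in membranes and keep enveloped viruses from fusing. IFITM2 was at 16.1 and 17.6 CPM in HCT-8, 20.3 and 21.9 CPM in HCT-8/FU, 49.1 and 33.7 CPM in CM of HCT-8, and 22.4 and 25.6 CPM in CM of HCT-8/FU. IFITM3 was at 77.5 and 71.8 CPM in HCT-8, 57 and 55.5 CPM in HCT-8/FU, 125 and 96.9 CPM in CM of HCT-8, and 71.8 and 73.4 CPM in CM of HCT-8/FU. Both were highest in CM of HCT-8, where their replicates also spread most. In CM of HCT-8/FU versus CM of HCT-8 the log2 fold change was -0.76 ± 0.148 for IFITM2 (adjusted p = 0.0019) and -0.60 ± 0.103 for IFITM3 (adjusted p = 7e-04). Without CM of HCT-8 replicate 1 these became -0.49 and -0.42, short of the fold threshold. The call of IFITM3 was lost in 10 of 19 alternatives, among them DESeq2 (-0.57), another TMM reference (-0.51) and the fit without HCT-8 replicate 2 (-0.54). The genes share stretches of 100 bases, so that the counts of each may be affected. Of these stretches 6.8% in IFITM2, 8.3% in IFITM3 and 17.9% in IFITM1 occur in another gene.

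CM of HCT-8 was compared with unconditioned HCT-8 to see what the medium of the cells' own kind does. Of the 34 members 9 were DE and all of them rose, where 8.15% of all tested genes were DE, 3.86% higher and 4.29% lower. The 9 were OAS3 (log2 fold change 1.37 ± 0.105, adjusted p = 1.5e-06), OAS1 (1.57 ± 0.172, adjusted p = 2.7e-05), IFI27, IFITM2, PARP9, IFI6, IFIT1, CMPK2 and IFI35. At an FDR of 0.05 without a fold threshold 12 members passed, adding ISG15 (0.53), IFITM3 (0.56) and LGALS3BP (0.53), all higher, where 19.4% of all genes passed and 9.04% passed and were higher. The median log2 fold change of the members was 0.42, against 0.01 over all genes. EIF2AK2 was not among them, at 0.10 ± 0.117 (adjusted p = 0.62), and the sign of this value turned without HCT-8 replicate 2 (-0.14) or without CM of HCT-8 replicate 1 (-0.04).

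IFI27 and IFI6, small proteins of mitochondrial and other membranes, showed this pattern without a rise in HCT-8/FU. IFI27 was at 40.3 and 42.5 CPM in HCT-8, 44 and 37.4 CPM in HCT-8/FU, 80.8 and 84.8 CPM in CM of HCT-8, and 61.7 and 63.3 CPM in CM of HCT-8/FU. IFI6 was at 35.3 and 44.4 CPM in HCT-8, 47.9 and 38.3 CPM in HCT-8/FU, 59.7 and 82.5 CPM in CM of HCT-8, and 65.4 and 62 CPM in CM of HCT-8/FU. For both genes HCT-8 and HCT-8/FU overlapped and both CM groups lay above them. In CM of HCT-8 against HCT-8 the log2 fold change was 0.99 ± 0.0953 for IFI27 (adjusted p = 7.9e-06) and 0.83 ± 0.146 for IFI6 (adjusted p = 0.0011). The further values were 1.25 ± 0.159 for IFITM2 (adjusted p = 9e-05), 0.76 ± 0.121 for PARP9 (adjusted p = 0.00046) and 0.94 ± 0.18 for IFIT1 (adjusted p = 0.002). Without HCT-8 replicate 2 IFIT1 (0.71, adjusted p = 0.089), CMPK2 (adjusted p = 0.06) and PARP9 (0.56) were no longer DE, and without CM of HCT-8 replicate 2 IFI6 (0.54) was not. IFI35, an interferon-induced protein at 6.71 to 13 CPM, was DE at 0.60 (adjusted p = 0.034) and was lost in 11 of 19 alternatives, among them DESeq2 (adjusted p = 0.069) and 5 of 8 fits without 1 library (0.42 to 0.61, adjusted p = 0.045 to 0.17). IFI6 shares 23.1% of its exonic bases with LINC02574 on the same strand.

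CM of HCT-8/FU against unconditioned HCT-8, which shares its HCT-8 libraries with the preceding comparison, gave 10 DE members, all higher, where 10.4% of all tested genes were DE, 7.16% higher and 3.28% lower. They were OAS3 (log2 fold change 1.13 ± 0.103, adjusted p = 3.9e-06), IFIT1 (1.45 ± 0.171, adjusted p = 2.9e-05), PARP14, IFIH1, IFI27, OAS1, CMPK2, PARP9, IFI6 and IFIT5. IFIH1 rose by 1.40 ± 0.207 on the log2 scale (adjusted p = 0.00019) and PARP14 by 0.64 ± 0.0822 (adjusted p = 5.9e-05). Calls were lost without 1 library for IFI6 (0.52) and IFI27 (0.55) without HCT-8 replicate 1, PARP9 (0.51) and PARP14 (0.58) without HCT-8 replicate 2, IFIT5 (0.58, adjusted p = 0.062) without replicate 1 of CM of HCT-8/FU, and IFI27 (0.57) without its replicate 2. EIF2AK2 passed the FDR at 0.53 ± 0.113 (adjusted p = 0.0028) and came just short of the fold threshold. It crossed it with another TMM reference library (0.61), with a term for the libraries with many records not aligned (0.65) and without HCT-8 replicate 1 (0.68), and with the GC correction described below it was at 0.24 (adjusted p = 0.17).

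GC content moved with these results. HCT-8/FU libraries gave low-GC genes more counts, with a Spearman correlation of GC content with each gene's deviation from its own mean of -0.488 and -0.452 over genes, whereas CM of HCT-8 libraries gave 0.375 and 0.534. The 12 members that rose in HCT-8/FU had a median GC content of 42.7%, the 21 that were not DE 51.1%, and IRF7, which fell, 67.2%. After a correction for GC content and length, 6 of the 13 DE members of HCT-8/FU against HCT-8 remained DE: OAS3 (log2 fold change 1.25), IFIT1 (1.28), CMPK2 (2.30), IFIH1 (0.86), PARP14 (0.67) and IRF7 (-0.74). That is 17.6% of the 34 members, close to the 15.2% of all genes that were DE under the same correction, where the uncorrected shares were 38.2% and 21.3%. By direction, 5 members were higher, where 7.29% of all genes were, and 1 was lower, where 7.95% were. The median log2 fold change of the members was then 0.30, against -0.02 over all genes. EIF2AK2, OAS1, HERC6, IFIT2, IFIT5, PARP9 and DTX3L no longer met both thresholds. In CM of HCT-8/FU versus CM of HCT-8, IFIH1 (0.59), PARP14 (0.52) and IFITM3 (-0.44) dropped out, IFITM2 (-0.63) stayed, and OAS1 (-0.92 ± 0.152, adjusted p = 0.002) was newly DE and lower. The 2 DE members are 5.88% of the 34, near the 4.83% of all genes. Both were lower, where 2.12% of all genes were. The value of EIF2AK2 there turned from 0.43 to -0.11. In CM of HCT-8 against HCT-8, 8 of 9 members remained, without IFI35, which is 23.5% of the 34 against 5.43% of all genes. In CM of HCT-8/FU against HCT-8 7 of 10 remained, without IFIT5, PARP9 and PARP14, which is 20.6% against 8.82% of all genes. What part GC content has in the result was not tested.

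**Figure D3:**
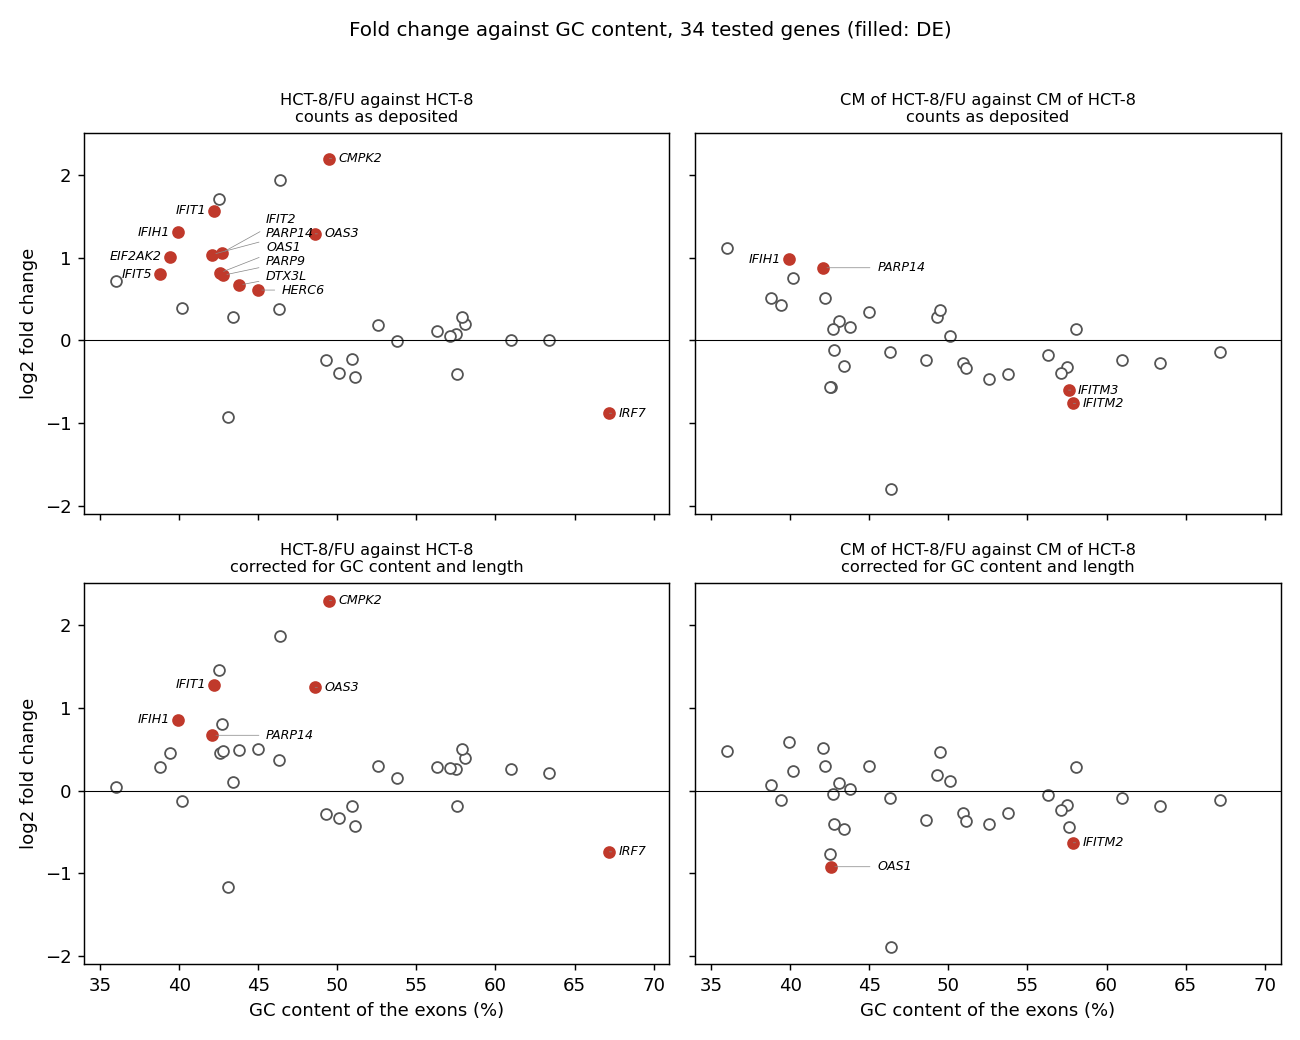
Log2 fold change (vertical axes) of the 34 tested members against the GC content of their exons in percent (horizontal axes), for HCT-8/FU against HCT-8 (left) and CM of HCT-8/FU versus CM of HCT-8 (right), from the counts as deposited (top) and after correction for GC content and length (bottom), filled where DE. On the left 13 members are DE at the top and 6 at the bottom, where EIF2AK2 lies at 0.45.

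The change in resistant cells against HCT-8 and the change under CM of resistant cells against CM of HCT-8 differed for some members. The log2 fold change of HCT-8/FU against HCT-8 minus that of CM of HCT-8/FU versus CM of HCT-8, which share no library, was DE by both thresholds for 7 members, where 7.69% of all tested genes were. At the FDR alone 9 members and 11.6% of all genes passed. It was positive for 6 of them (background 3.55%), namely OAS3 (1.53 ± 0.144, adjusted p = 9e-06), OAS1 (1.38 ± 0.236, adjusted p = 0.0013), PARP9 (0.90 ± 0.166, adjusted p = 0.0024), IFITM2, IFIT1 and CMPK2. It was negative for IRF7 (-0.74 ± 0.184, adjusted p = 0.016), where 4.14% of all genes were lower. EIF2AK2 (0.57 ± 0.16, adjusted p = 0.031) and DTX3L passed the FDR alone. With the GC correction (0.56, adjusted p = 0.054) and with DESeq2 size factors (0.55, adjusted p = 0.06) EIF2AK2 missed it. EIF2AK2 also missed it in 5 of 8 fits without 1 library, and its values over the 8 ran from 0.32 to 0.73. DTX3L (0.52 ± 0.13, adjusted p = 0.018) missed it in 5 of 8 as well, at adjusted p = 0.054 to 0.23, and with the GC correction (adjusted p = 0.058). For PARP14 (0.17 ± 0.118, adjusted p = 0.43) and IFIH1 (0.33 ± 0.297, adjusted p = 0.57), which were DE in both comparisons, no difference was detected. Without HCT-8 replicate 2 only OAS1 and OAS3 kept their calls, and the share of members DE was then no higher than that of all genes. The others of the 7 were then at 0.68 for PARP9, 0.80 for IFIT1, 1.05 for IFITM2, 2.19 for CMPK2 and -0.80 for IRF7.

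**Figure D4:**
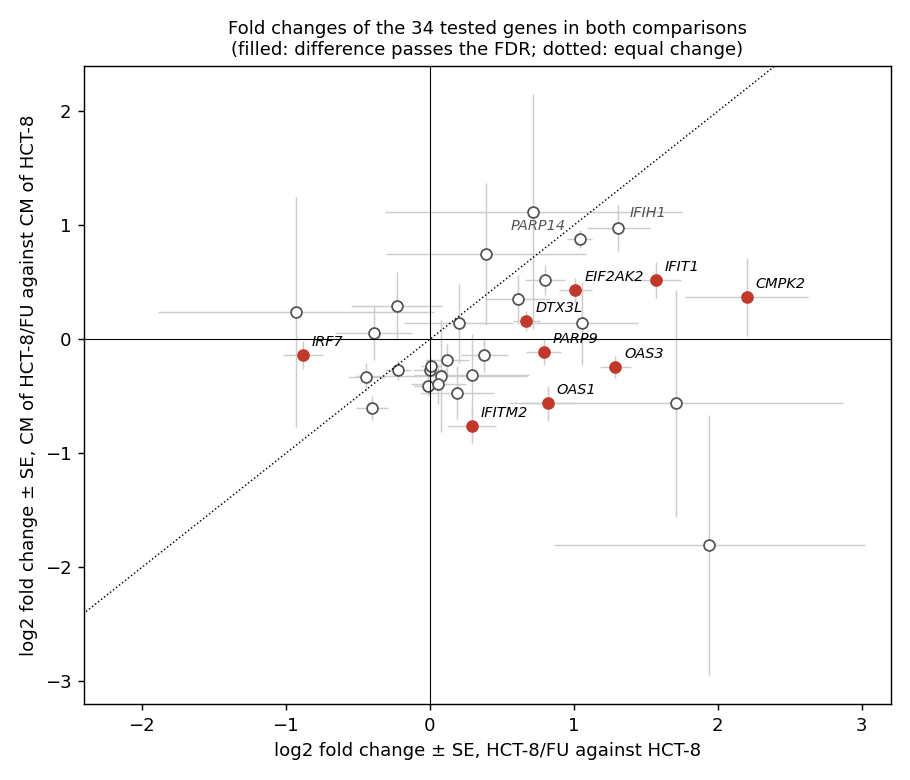
Log2 fold change with its SE of the 34 tested members in HCT-8/FU against HCT-8 (horizontal axis) and in CM of HCT-8/FU versus CM of HCT-8 (vertical axis), filled where the difference passes the FDR, with a dotted line of equal change. OAS3, OAS1 and PARP9 lie below the line with values of -0.24, -0.56 and -0.11 in CM, and PARP14 and IFIH1 lie near it.

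Counts for the genes around the members are read against the 13.2% of all tested genes that were DE and higher and the 8.12% that were DE and lower in HCT-8/FU against HCT-8. In CM of HCT-8/FU versus CM of HCT-8 these shares were 7.97% and 1.28%. Of 18 receptors, kinases and regulators of interferon signalling, 4 were DE and higher in HCT-8/FU against HCT-8 (IFNAR1, JAK2, PIAS1 and PTPN11) and 4 lower (IFNLR1, IL10RB, JAK1 and SOCS3). JAK1, a kinase of the interferon receptors, was at 196 and 193 CPM in HCT-8 and between 122 and 127 CPM in the 6 libraries of the other groups. It was the only one of the 18 that was DE and lower than HCT-8 in all 3 other groups (log2 fold changes -0.66, -0.64 and -0.62), also after the GC correction (-0.71, -0.59 and -0.65). Only JAK2 was DE in CM of HCT-8/FU versus CM of HCT-8, at 1.26. After the GC correction JAK2 was not DE in either comparison (0.74 and 0.69), and of the 18 genes 0 were DE and higher and 2 lower in HCT-8/FU against HCT-8.

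Of 18 sensors and adaptors of nucleic acids, 16 were tested. TLR3, RIGI and TBK1 were DE and higher in both HCT-8/FU against HCT-8 (1.14, 0.60 and 0.64) and CM of HCT-8/FU versus CM of HCT-8 (1.09, 1.08 and 0.82). TLR3, the sensor of double-stranded RNA in endosomes, kept both calls after the GC correction (0.63 and 0.62), whereas RIGI kept only the latter (0.64) and TBK1 neither (-0.02 and 0.15). TICAM1 and TRIM25 fell in HCT-8/FU against HCT-8, and CGAS, was DE and lower in CM of HCT-8/FU versus CM of HCT-8 on 41 counts over all 8 libraries, of which 21 were in CM of HCT-8 replicate 2 and 1 in its replicate 1. Of 48 further interferon-stimulated genes 40 were tested, of which 8 were DE and higher in HCT-8/FU against HCT-8 (DDX60, DDX60L, GBP3, NMI, APOL6, ZC3HAV1, PLSCR1 and PNPT1) and 3 lower (LAMP3, WARS1 and ISG20). DDX60, DDX60L and GBP3 were also the 3 of the 40 that rose in CM of HCT-8/FU versus CM of HCT-8, where 7.97% of all genes did. After the GC correction all 3 remained DE in the former comparison (1.36, 1.19 and 1.00), and DDX60 alone in the latter (1.38). Of the 40, 5 were then DE and higher and 4 lower in HCT-8/FU against HCT-8, where 7.29% of all genes were higher and 7.95% lower. LAMP3 (-2.21 ± 0.0877) and WARS1 (-1.61 ± 0.0773), which are also induced by amino acid and endoplasmic reticulum stress, were DE and lower in all 3 other groups than in HCT-8.

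Among 21 partners of PKR, other eIF2 kinases and factors of eIF2, only PPP1R15A was DE in HCT-8/FU against HCT-8. It encodes GADD34, which leads a phosphatase to eIF2alpha and so opposes PKR. PPP1R15A was at 617 and 614 CPM in HCT-8 and at 153 and 140 CPM in HCT-8/FU, a log2 fold change of -2.07 ± 0.0849 (adjusted p = 7.3e-10), and -1.86 after the GC correction. Its values against HCT-8 were -1.06 for CM of HCT-8 and -1.45 for CM of HCT-8/FU, both DE. DNAJC3, which encodes an inhibitor of PKR, was the only one DE in CM of HCT-8/FU versus CM of HCT-8, at 0.66 ± 0.0951, and with the GC correction (0.26, adjusted p = 0.13) it was not. With that correction 4 of the 21 were DE and lower in HCT-8/FU against HCT-8, with none higher. There 7.95% of all genes were lower and 7.29% higher. In CM of HCT-8/FU versus CM of HCT-8, 2 of the 21 were DE and lower, where 2.12% of all genes were lower and 2.71% higher.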

How the data were processed

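RNA-seq was made from 8 libraries, 2 for each of the 4 groups, by mRNA capture and paired reads of 150 bases. The authors aligned reads with HISAT2 to GRCh38, used SAMtools 1.18, and counted reads per gene with HTSeq 0.11.2. The deposited values used here are raw counts per gene. The strand setting of the counting is not given in the sources read. Tables of the authors' own DESeq2 1.30.0 comparisons hold fold changes and p-values and were not used. Records that name no gene, 59.2% to 70.3% of each library, were left out. One count was worth 0.0296 to 0.167 CPM. The members and lists of other genes were chosen with earlier results of these data known.

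All 8 libraries entered 1 fit of 4 group means in edgeR 4.0.16 (R 4.3.3) with its quasi-likelihood test. TMM normalization used HCT-8 replicate 2 as reference, and the filter of edgeR on low counts kept 20305 of 64253 genes. Genes were DE at an FDR of 0.05 and a 1.5-fold change, and SEs were obtained from the F statistic. The correction for GC content and length fitted, per library, splines with 5 degrees of freedom each in GC content and log length from GENCODE 44 gene models, which held 56105 of the gene identifiers. Members were named with all libraries' values if DE with groups that do not overlap, or if the difference between comparisons passed the FDR, and EIF2AK2 always. Other settings were DESeq2 1.42.0, its size factors, another TMM reference, other filters, FDR alone, a replicate block, a covariate marking libraries where more than 15% of records were not aligned, and leaving out each library. The fits were also run on simulated counts, whose outcome is not given here and is not used as support.

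Nothing says that replicates were separate cultures, so p-values measure only the spread between these libraries, which may be technical. Replicates differed by more than sampling (median chi-square per gene 1.03 to 2.15, with 0.455 given by sampling alone). An exact permutation test of 2 against 2 libraries cannot go below 0.333, so none was run.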

Additional observations from a re-analysis of the deposited data

Results flagged for a closer look

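For 9 members the change in HCT-8/FU against HCT-8 differed from the change in CM of HCT-8/FU versus CM of HCT-8 by the test of the difference itself (edgeR, adjusted over all genes tested). The difference in log2 fold change was 1.84 for CMPK2, 1.53 for OAS3, 1.38 for OAS1, 1.05 for IFIT1, 1.05 for IFITM2, 0.90 for PARP9, 0.57 for EIF2AK2, 0.52 for DTX3L and -0.74 for IRF7. The rise in CM of HCT-8 against HCT-8 made up most of the positive differences that met both thresholds. CMPK2, EIF2AK2 and DTX3L missed the FDR with the GC correction (adjusted p = 0.058, 0.054 and 0.058). Of all tested genes 11.6% passed the FDR in the test of the difference. OAS1 and OAS3 passed it under every alternative that was run. CMPK2 missed it in every fit that left out 1 library except that without CM of HCT-8 replicate 2.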

How the results depend on the processing

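Only results of members called in the fit described above, and of EIF2AK2, were followed under other settings. For the difference these were the members that passed the FDR. Of these 901 results, 783 kept their direction and their side of the threshold, and 108 dropped out of the calls. Another 6 entered them and 4 turned direction, all of EIF2AK2. Other members called only under another setting are not in this tally, such as OAS1 in CM of HCT-8/FU versus CM of HCT-8 with the GC correction. With the correction for GC content and length, with or without a replicate block, 6 members instead of 13 were DE in HCT-8/FU against HCT-8 and 2 instead of 4 in CM of HCT-8/FU versus CM of HCT-8, where FDR alone gave 11. Without the block 15.2% and 4.83% of all genes were DE under that correction, near the members' 17.6% and 5.88%. EIF2AK2 turned to -0.11 in the latter comparison with that correction, with or without the block, and in CM of HCT-8 against HCT-8 to -0.14 without HCT-8 replicate 2 and to -0.04 without CM of HCT-8 replicate 1, where fits without 1 library ran from -0.14 to 0.27. Fits without 1 library gave 10 to 13 DE members in HCT-8/FU against HCT-8, 3 to 4 in CM of HCT-8/FU versus CM of HCT-8, 7 to 9 in CM of HCT-8 against HCT-8, 8 to 10 in CM of HCT-8/FU against HCT-8, and 2 to 8 for the difference, where 17.4% to 21.5%, 6.8% to 9.55%, 5.94% to 8.52%, 7.24% to 11.2% and 5.08% to 10.1% of all genes were DE. Where such a fit left a group with 1 library, that library was taken to vary like the other groups. DESeq2 gave 11, 3, 7, 9 and 6 in the same order, with no adjusted p for CMPK2 in 2 of them, and 6.1%, 2.66%, 2.33%, 2.87% and 2.23% of all 64253 genes, which include those too low to test. Correlations of replicate differences between groups ran from -0.123 to 0.132. The shallow library was replicate 1 in HCT-8 and CM of HCT-8 but replicate 2 in HCT-8/FU. These correlations therefore cannot decide whether replicate numbers pair the samples. The replicate block gave 11 (without HERC6 and IFIT2), 4, 9, 10 and 6 (without CMPK2), with 20.6%, 8.94%, 7.86%, 10.1% and 7.5% of all genes. Another TMM reference moved the median log2 fold change of all genes in HCT-8/FU against HCT-8 to 0.10, with 15.6% of genes higher and 5.87% lower. The fit of the groups compared only could not be made for the difference. The cause of these changes was not tested. Depth limits the members below 2.2 CPM, for which SE of the log2 fold change reached 1.19 in a pairwise comparison.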
